A study of Mus musculus with 9 samples.

Results

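Polycomb repressive complex 2 (PRC2) is the enzyme complex that methylates histone H3 on lysine 27 (H3K27me3), a mark of silenced developmental genes in embryonic stem cells (ESCs). The mRNAs of 8 of its subunits are described here: Ezh2, Ezh1, Eed, Suz12, Jarid2, Aebp2, Mtf2 and Phf19. They were chosen by gene symbol from a table of 24132 RefSeq symbols. The rule itself used no measured value, but the members were chosen with earlier results of these data known. All 8 were found, and all 8 were among the 9787 genes that reached an RPKM (reads per length of transcript and per mapped reads) of 1 in at least 2 libraries.

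The RNA came from V6.5 mouse ESCs, a 129/B6 F1 hybrid, grown without feeders and with LIF. WDR5 is a subunit of the MLL complexes, which place the activating methyl mark on lysine 4 of histone H3. The empty vector line carried the lentivirus with no tagged WDR5, the WT line carried human WDR5 with FLAG and HA tags, and the F266A line carried the same tags on human WDR5 with phenylalanine replaced by alanine in its RNA-binding pocket. Each tagged line was a clone selected for near endogenous WDR5 level, the F266A construct was shorter at its N-terminus, and the cells kept their own mouse WDR5. In RIPiT-seq the cells were crosslinked with formaldehyde, complexes were purified through FLAG and then HA, and the recovered RNA was sequenced. Each line had 2 such IP libraries and 1 input library of unpurified RNA, 9 libraries in all. The labels do not say whether the IPs of a line came from separate cultures, so p-values measure only the spread between these samples.

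PRC2 is built around a catalytic subunit, EZH2 or its paralog EZH1, with EED, which reads H3K27me3, and SUZ12, which holds the complex together. Accessory subunits define subtypes of the complex. The Polycomb-like proteins MTF2 and PHF19 belong to PRC2.1, and JARID2 and AEBP2 to PRC2.2. In ESCs PRC2 holds lineage genes silent, and cells without it can self-renew but differentiate poorly.

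Because the members include 2 pairs of paralogs read with 50-base reads, the closest stretch of each pair is shown from the GENCODE M1 transcripts on mm9. Capitals mark the bases that differ within the pair. All 4 stretches lie in coding sequence, and those of Ezh2 and Ezh1 cross an exon junction, so that their coordinates include an intron. In the Ezh2 and Ezh1 transcripts 4 of 50 bases differed, and in Mtf2 and Phf19 10 of 50. Over the whole coding sequence the identity was 67.4% for Ezh2 and Ezh1 and 59.1% for Mtf2 and Phf19, and the longest identical run was 17 and 14 bases, so no 50-base stretch was identical between paralogs.
Ezh2, chr6:47480562-47481750, minus strand, exons 19 and 20: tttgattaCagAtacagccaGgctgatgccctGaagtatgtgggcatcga
Ezh1, chr11:101054275-101054543, minus strand, exons 20 and 21: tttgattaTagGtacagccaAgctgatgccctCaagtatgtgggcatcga
Mtf2, chr5:108510183-108510232, plus strand, exon 3: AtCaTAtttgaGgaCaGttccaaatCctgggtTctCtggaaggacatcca
Phf19, chr2:34766689-34766738, minus strand, exon 3: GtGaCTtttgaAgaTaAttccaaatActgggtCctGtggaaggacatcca

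Partial copies of other members lie elsewhere in the genome. A copy on chromosome X matched 3928 of the 4373 bases of the Suz12 transcript at 89.2% identity, and a copy on chromosome 1 matched 2646 of the 3741 bases of Phf19 at 87.3%. Shorter matches were found for Suz12, Mtf2, Aebp2 and Jarid2, and none for Ezh2, Ezh1 and Eed. How reads that match several places were counted is not given in the sources used here, so the levels of the members with copies are less certain. On the opposite strand, Tmed5 shares 395 exon bases with Mtf2, and its RPKM lay between 1.04 and 1.31. Annotated lincRNAs share 174 bases with Ezh2 and 178 with Suz12, and the strand setting of the counting is not given.

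Depth, estimated from the value of a single read, ranged from 13400000 to 50000000 mapped reads per library. All 10 ESC markers examined, such as Pou5f1, Nanog and Sox2, had an RPKM of at least 1 in every library. Of 5 fibroblast markers no library had more than 1 at that level. The 8 primitive endoderm markers summed to 45.4 RPKM in the F266A input and 56.6 in F266A IP 2, against 17.5 to 25.1 in the other 7 libraries. This sum rests mostly on Sparc, and in F266A IP 1 the markers went both ways. There Gata4, Gata6, Dab2 and Col4a1, at 0.695, 0.0615, 0.916 and 1.03, were above every empty vector and WT library. Sox17, Foxa2 and Lama1 were not, and Sparc was at its lowest of all libraries, 12.2. The Y-linked genes Ddx3y, Uty and Eif2s3y summed to 4.43 RPKM in the F266A input and 7.21 in F266A IP 2, but to 0.038 in the library labelled F266A IP 1. They summed to between 0.182 and 0.324 in the WT libraries and between 7.41 and 9.48 in the empty vector libraries. The library labelled F266A IP 1 therefore went against the other libraries of its line in both sums, and the members' contrasts with the F266A line are given with and without it. Whether the endoderm markers or the Y-linked genes play a part in any result below was not tested.

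The 8 mRNAs differed widely in level per transcript length. Jarid2 was the most abundant at 20.3 ± 3.77 RPKM (SD, n = 9 libraries), followed by Mtf2 at 16.1 ± 2.27, Suz12 at 14.3 ± 1.52, Ezh2 at 12.7 ± 2.11 and Eed at 12.4 ± 2.199. Aebp2 at 3.88 ± 0.561, Ezh1 at 2.75 ± 0.495 and Phf19 at 1.13 ± 0.245 were lower. The 3 genes of the obligate core, Ezh2, Eed and Suz12, therefore lay close together, at percentiles from 88.4 to 90.2 of the levels of all genes tested.

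The steps in this order were tested in an exact two-sided sign-flip permutation test of the log2 ratio over the 9 libraries, for 7 pairs of neighbours. The order itself came from the mean RPKM of these same 9 libraries. The test therefore measured only whether a ratio was steady over the libraries. A wrong length behind the RPKM, or reads from copies, would shift a ratio in all libraries alike. The levels of Ezh2 and Eed did not differ beyond their spread, with a ratio of 1.03, Ezh2 higher in 6 of 9 libraries and an exact adjusted p = 0.26. The other 6 steps passed the threshold. Jarid2 exceeded Mtf2 1.25-fold in 9 of 9 libraries (exact adjusted p = 0.0068), Mtf2 exceeded Suz12 1.12-fold in 7 of 9 (exact adjusted p = 0.022) and Suz12 exceeded Ezh2 1.13-fold in 7 of 9 (exact adjusted p = 0.041). The gap between Eed and Aebp2 was the widest, 3.18-fold, and the ranges of these genes did not overlap. Aebp2 exceeded Ezh1 1.42-fold and Ezh1 exceeded Phf19 2.44-fold, each in 9 of 9 libraries. The exact p of these 3 steps and of Jarid2 over Mtf2, 0.0039, is the smallest that 9 libraries allow, and the libraries of a line are not independent of each other. In the 6 IPs alone the order was the same but no step passed, with a lowest exact adjusted p = 0.055.

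**Figure D1:**
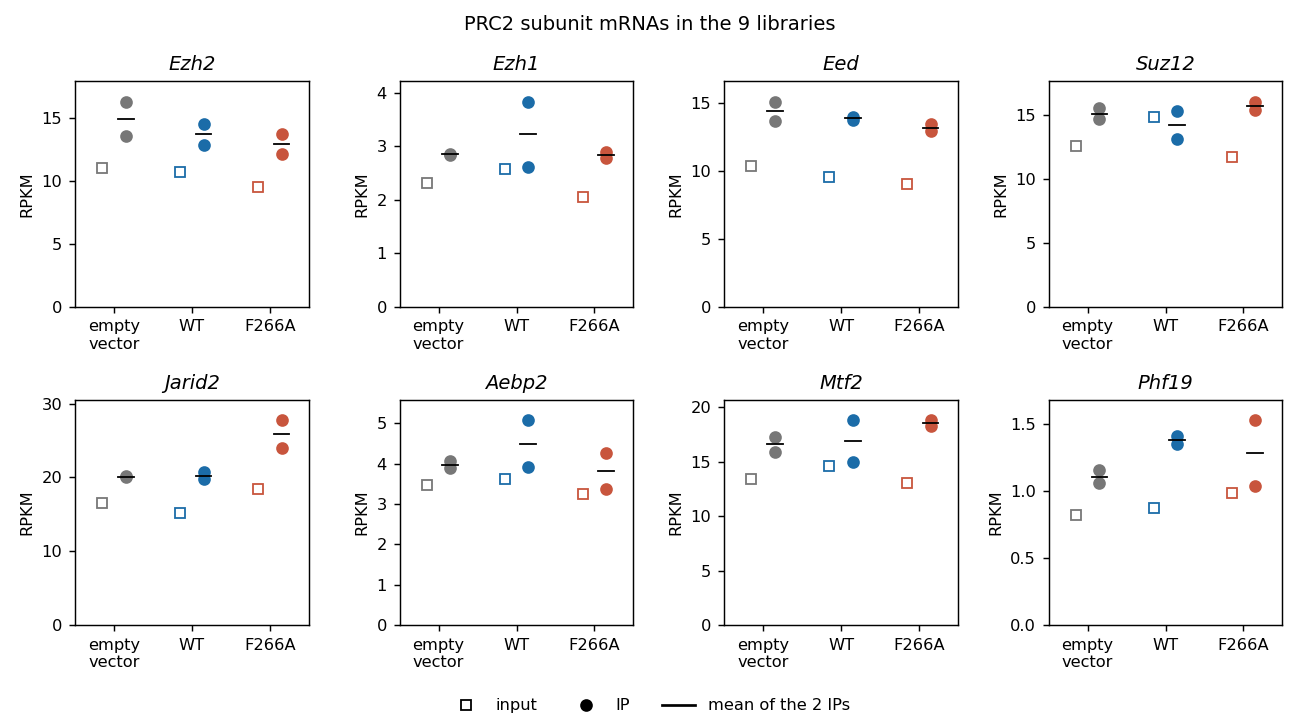
RPKM of each of the 8 mRNAs in the 3 lines, with the input of a line as an open square, its 2 IPs as filled circles and a bar at the mean of the IPs. Each panel has its own RPKM axis from 0. The IPs of Jarid2 in the F266A line, at 27.8 and 24.0, lie above the other 4 IPs, and the WT input of Suz12, at 14.8, lies within the range of the IPs.

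Ezh2 (chr6:47480273-47545340, minus strand) encodes the main catalytic subunit of dividing cells. Its RPKM was 11.03, 10.8 and 9.51 in the empty vector, WT and F266A inputs. The IPs read 16.3 and 13.6 in the empty vector line, 12.9 and 14.6 in WT and 12.1 and 13.7 in F266A. All 6 IPs were above all 3 inputs, and the IPs of the 3 lines overlapped.

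Ezh1 (chr11:101052429-101087777, minus strand) encodes the paralog with weaker methyltransferase activity, known mainly from non-dividing cells. It read 2.31, 2.57 and 2.05 in the empty vector, WT and F266A inputs. Its IPs were at 2.85 and 2.86 in the empty vector line, 2.62 and 3.84 in WT and 2.78 and 2.89 in F266A, so the WT pair enclosed the other 4. The ratio of Ezh2 to Ezh1 was 4.66 ± 0.539 (SD, n = 9). It was lowest in WT IP 2 at 3.80 and highest in empty vector IP 1 at 5.74, and in the inputs it was 4.77, 4.18 and 4.64 for empty vector, WT and F266A.

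Eed (chr7:97103166-97129493, minus strand) read 10.3, 9.50 and 8.995 in the empty vector, WT and F266A inputs. Its IPs were at 15.1 and 13.7 in the empty vector line, 13.7 and 14.0 in WT and 13.4 and 12.9 in F266A. Every IP was above every input, by a clear gap, and both F266A IPs were below the other 4 IPs by a small margin, the library labelled F266A IP 1 being the higher of the pair. The last pattern held for 17.0% of all genes tested.

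Suz12 (chr11:79806608-79847625, plus strand) read 12.5 in the empty vector input, 14.8 in the WT input and 11.6 in the F266A input. Its IPs were at 14.6 and 15.5 in the empty vector line, 15.3 and 13.1 in WT and 15.4 and 16.0 in F266A. In WT the input lay between the IPs, whereas in the other lines both IPs were above their input. Suz12 also had the widest spread between inputs of the 8 members, 1.27-fold from F266A to WT (95% counting interval 1.20 to 1.35). The interval covers counting error only and rests on a GENCODE M1 transcript length of 4373 bases, which may not be the length behind the RPKM. With 1 input per line the difference has no replicate check. On the log2 scale of RPKM + 1 the range was 0.33, against a median of 0.26 over all genes tested.

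Jarid2 (chr13:44824843-45017012, plus strand) encodes a DNA-binding cofactor of PRC2.2 from the Jumonji family that lacks demethylase activity. Its inputs read 16.6 in the empty vector line, 15.2 in WT and 18.5 in F266A. The IPs were at 20.0 and 20.2 in the empty vector line, 20.7 and 19.8 in WT and 27.8 and 24.0 in F266A. The F266A line was the highest in both the inputs and the IPs. Both F266A IPs were above the other 4 IPs, a pattern found in 12.8% of all genes tested.

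Aebp2 (chr6:140570970-140626993, plus strand) encodes a zinc finger protein that binds SUZ12. It read 3.46, 3.63 and 3.25 in the empty vector, WT and F266A inputs, 4.07 and 3.88 in the empty vector IPs, 3.90 and 5.08 in the WT IPs and 3.37 and 4.26 in the F266A IPs. The lower F266A IP was below the WT input, so IPs and inputs overlapped.

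Mtf2 (chr5:108494693-108538023, plus strand) encodes the Polycomb-like protein that recruits PRC2.1 to unmethylated CpG islands. It read 13.4, 14.6 and 13.0 in the empty vector, WT and F266A inputs, 15.9 and 17.2 in the empty vector IPs, 14.9 and 18.8 in the WT IPs and 18.8 and 18.3 in the F266A IPs. The IPs were all above the inputs, but WT IP 1 was only just above its own input. Phf19 (chr2:34749277-34769546, minus strand), its paralog, read 0.822, 0.870 and 0.985 in the empty vector, WT and F266A inputs. Its IPs were at 1.15 and 1.06 in the empty vector line, 1.35 and 1.41 in WT and 1.04 and 1.53 in F266A. Phf19 rests on an estimated 53 to 154 reads per library, a counting error of 8.06% to 13.7%, whereas Jarid2 rests on 1622 to 4967 reads and an error of 1.42% to 2.48%. These read numbers assume GENCODE M1 transcripts of 3741 and 5997 bases, since the lengths behind the RPKM are not given in the sources used here, and a greater length would give more reads and a smaller error. The ratio of Mtf2 to Phf19 was 14.5 ± 2.40 (SD, n = 9), with a range from 11.1 to 18.1.

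As a sum, the 8 mRNAs reached 70.5, 72.0 and 67.9 RPKM in the empty vector, WT and F266A inputs and between 85.4 and 94.7 in the IPs. Jarid2 made up 21.2% to 29.4% of the sum, Mtf2 17.5% to 20.8%, Suz12 14.5% to 20.6%, Ezh2 12.8% to 18.1% and Eed 13.2% to 16.7%. Phf19 stayed between 1.098% and 1.63%.

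The first comparison asked whether the mRNAs were higher in the IPs than in the inputs, averaged over the 3 lines. Eed, Jarid2, Ezh2 and Mtf2 were higher in the IP on the log2 (RPKM + 1) scale, which understates changes of low genes. Eed rose by 0.48 (SE 0.08, limma adjusted p = 0.0041) and Jarid2 by 0.37 (SE 0.09, limma adjusted p = 0.010). Ezh2 rose by 0.38 (SE 0.10, limma adjusted p = 0.014) and Mtf2 by 0.32 (SE 0.10, limma adjusted p = 0.026). The other 4 were not past the threshold, with differences of 0.26 for Ezh1, 0.25 for Phf19, and 0.19 for both Suz12 and Aebp2 (limma adjusted p from 0.060 to 0.14).

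These 4 of 8 stand beside 56.4% of all genes tested that were called higher in the IP, and the median difference was 0.29 for the members and 0.30 for all genes. Relative to the median of all genes, Eed was 0.18 higher, Ezh2 0.08, Jarid2 0.07 and Mtf2 0.02, while Suz12 was at -0.10 and Aebp2 at -0.11. With each library centred on its median, 1.56% of genes were called and 0 of 8 members. The differences were then 0.17 for Eed, 0.07 for Ezh2, 0.06 for Jarid2 and 0.01 for Mtf2, and below 0 for the others, at -0.12 for both Suz12 and Aebp2, -0.06 for Phf19 and -0.05 for Ezh1. With quantile normalization 0 of 8 were called, and all but Eed (0.05) and Phf19 (0.05) took a negative sign, Suz12 the furthest at -0.24 (limma unadjusted p = 0.021, adjusted p = 0.18). Without the library labelled F266A IP 1, 5 of 8 were called, Phf19 being the addition, beside 58.4% of all genes tested that were then called higher. Without the empty vector line, Ezh2 (adjusted p = 0.067) and Mtf2 (adjusted p = 0.097) were no longer called. Mtf2 was also not called without either empty vector IP or without the F266A line.

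All 6 IPs were above all 3 inputs for 6 of the 8 members, the exceptions being Suz12 and Aebp2, the last through the library labelled F266A IP 1. This pattern was found in 42.2% of all genes tested.

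**Figure D2:**
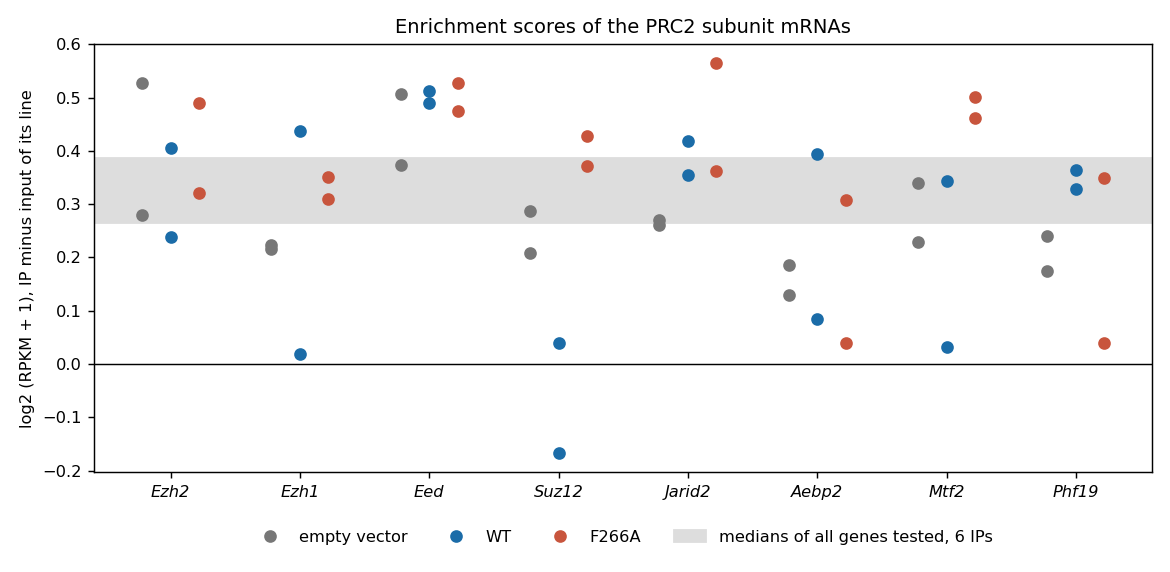
Enrichment score of each mRNA, the log2 (RPKM + 1) of an IP minus that of the input of its line, with 2 points per line. The grey band spans the medians of all genes tested in the 6 IPs, 0.26 to 0.39, and the only score below 0 is WT IP 2 of Suz12 at -0.17.

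The second comparison addressed the aim of the experiment, RNA recovered with WDR5 WT more than with the F266A mutant or the empty vector. An enrichment score was the log2 (RPKM + 1) of an IP minus that of the input of its line. The scores of Suz12 were 0.04 and -0.17 in WT, 0.37 and 0.43 in F266A and 0.21 and 0.29 in the empty vector line, so the WT scores were below all 4 others, a pattern found in 12.5% of all genes tested. The difference of WT minus F266A was -0.46 (SE 0.22, 95% interval -0.96 to 0.03) and did not pass the threshold (limma unadjusted p = 0.063, adjusted p = 1.0). It was -0.49 without the library labelled F266A IP 1 (SE 0.23, limma unadjusted p = 0.065). The single WT input, the highest of the 3 for Suz12, enters both WT scores. The difference in the IPs alone was -0.14 (SE 0.12, limma adjusted p = 0.67), and -0.17 without the library labelled F266A IP 1.

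The scores of Eed lay close together. They were 0.51 and 0.37 in the empty vector line, 0.49 and 0.51 in WT and 0.53 and 0.47 in F266A. The 95% interval of the WT minus F266A difference ran from -0.46 to 0.46, and from -0.46 to 0.51 without the library labelled F266A IP 1. For Ezh2 the difference of WT minus F266A was -0.08 (95% interval -0.64 to 0.47) and for Mtf2 -0.29 (95% interval -0.85 to 0.26). When the library labelled F266A IP 1 was left out these were -0.17 (95% interval -0.75 to 0.41) and -0.27 (95% interval -0.88 to 0.33).

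In the 3 contrasts of enrichment between lines limma called 0 of 8 members at an adjusted p under 0.05, and 0 members had an unadjusted p under 0.05. Across all genes the share called was 0% for WT against F266A, 0% for WT against the empty vector and 0% for F266A against the empty vector, with 259, 173 and 243 genes at an unadjusted p under 0.05. The members' differences ranged from -0.46 to 0.15 for WT minus F266A, from -0.31 to 0.14 for WT minus empty vector and from -0.01 to 0.20 for F266A minus empty vector. Without the library labelled F266A IP 1 they ranged from -0.49 to 0.03 for WT minus F266A and from 0.03 to 0.18 for F266A minus empty vector. In WT minus F266A, Phf19 moved from 0.15 to -0.003 and Aebp2 from 0.07 to -0.07. These comparisons share libraries.

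By the rule of the study's methods, a gene counts as enriched when both WT scores are positive and exceed each of the 4 scores in the F266A and empty vector lines. The methods word the score as log2 RPKM with no added value, whereas 1 was added here. None of the 8 members met the rule, beside 5.29% of the genes tested. Phf19 came closest, with a lower WT score of 0.33 against a highest control score of 0.35, in F266A IP 2. Its other control scores were 0.24 or lower, so Phf19 missed the rule through that library alone. Eed followed, with 0.49 against 0.53. Suz12 was the furthest away, at -0.17 against 0.43. Scored without the added 1, 0 members met it, beside 5.86% of the genes tested that were above 0 in all libraries, and Phf19 was at 0.631 against 0.633. Without WT IP 1, Ezh1, Aebp2 and Phf19 met the rule through WT IP 2 alone, as did 14.3% of the genes tested. Without WT IP 2 no member met it, beside 15.2% of the genes tested. With the library labelled F266A IP 1 left out, the rule was met by 0 members, beside 10.6% of the genes tested, and Jarid2 came closest at 0.355 against 0.362.

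The IPs were also compared without the inputs. With all libraries, Jarid2 differed the most of the 8 in both contrasts with F266A. In the F266A IPs it was 0.35 higher than in the empty vector IPs (SE 0.12, 95% interval 0.06 to 0.63, limma unadjusted p = 0.024, adjusted p = 0.17). In WT minus F266A it was at -0.34 (SE 0.12, 95% interval -0.63 to -0.05, limma unadjusted p = 0.026, adjusted p = 0.23). Neither passed the adjusted threshold, and WT minus empty vector was 0.01 (SE 0.12).

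Without the library labelled F266A IP 1 the Jarid2 differences were 0.25 (limma adjusted p = 0.34) against the empty vector and -0.24 (adjusted p = 0.41) for WT minus F266A, and against the empty vector Phf19 was then the higher at 0.26. When inputs and IPs were fitted together with a term for line and a term for fraction, they were 0.28 (limma adjusted p = 0.055) and -0.31 (adjusted p = 0.052). Over 14 alternatives the adjusted p lay between 0.055 and 0.58 for F266A against the empty vector and between 0.052 and 0.48 for WT against F266A.

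Across all 8 members limma called 0 in each of the 3 contrasts of the IPs. The share of all genes called was 1.16% for WT against F266A, 0% for WT against the empty vector (557 genes at an unadjusted p under 0.05) and 4.55% for F266A against the empty vector. Apart from Jarid2, the members' differences in the IPs lay between -0.19 and 0.19, and all of their 95% intervals held 0. The highest of these was Aebp2 in WT minus F266A at 0.19 (95% interval -0.15 to 0.52) and the lowest Ezh2 in F266A minus empty vector at -0.19 (95% interval -0.51 to 0.13). Leaving out the library labelled F266A IP 1, these were 0.05 and -0.11. The members then ranged from -0.24 to 0.11 for WT minus F266A and from -0.14 to 0.26 for F266A minus empty vector.

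**Figure D3:**
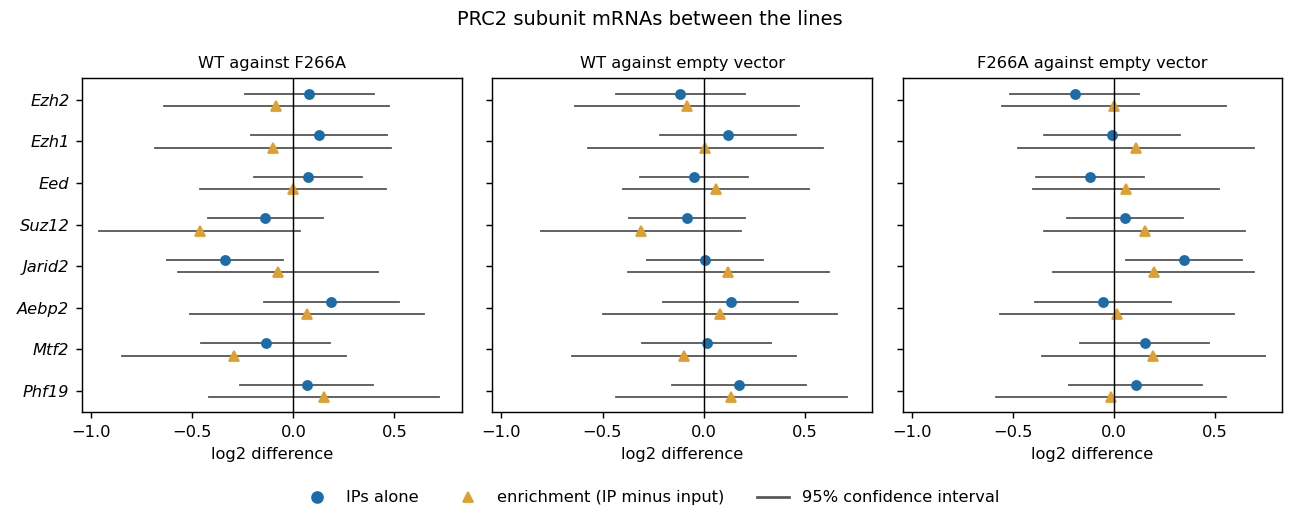
Log2 difference between lines for each mRNA, from the IPs alone (circles) and from the enrichment scores (triangles), with 95% confidence intervals from the limma fit. The interval leaves out 0 for Jarid2 in the IPs of WT against F266A and of F266A against the empty vector, and for no other member, and neither passes the adjusted threshold.

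In the inputs, which measure RNA level in the cells without purification, the 8 mRNAs differed by 1.11-fold to 1.27-fold between the lowest and the highest line. In such bulk RNA, fewer cells with an mRNA and less of it per cell cannot be told apart. The highest input exceeded the lowest 1.27-fold for Suz12, 1.26-fold for Ezh1, 1.21-fold for Jarid2, 1.20-fold for Phf19, 1.16-fold for Ezh2, 1.15-fold for Eed, 1.12-fold for Mtf2 and 1.11-fold for Aebp2. The 95% counting interval held 1 for Phf19 (0.95 to 1.51) and Aebp2 (0.92 to 1.35). The interval of Aebp2 assumes a GENCODE M1 transcript of 1518 bases, whereas all annotated exons of the gene cover 8751. A greater length would give more reads and a narrower interval, so whether it holds 1 is uncertain. The F266A input was the lowest for 6 of the 8, beside 58.9% of all genes tested. For Jarid2 and Phf19 it was the highest, beside 22.9% of all genes tested.

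The genes with a pattern most like that of the core subunits over the 9 libraries were found by the correlation of log2 (RPKM + 1), given as a description. For Ezh2 they were Mrm1 (Pearson r = 0.98, Spearman rho = 0.98), Cnih4 (r = 0.98, rho = 0.98) and Copb2 (r = 0.98, rho = 0.97). For Eed they were Pop4 (r = 0.996, rho = 0.95), Iscu (r = 0.99, rho = 0.95) and Pomp (r = 0.99, rho = 0.95). Suz12 had a pattern shared by fewer genes, led by Fyttd1 (r = 0.96, rho = 0.92), Etaa1 (r = 0.95, rho = 0.88) and Pcnp (r = 0.94, rho = 0.80). An r above 0.9 was found with 1305 of 9779 genes for Eed, 337 for Ezh2 and 21 for Suz12. The 9 points share lines and the step from input to IP, which most genes share. Among the members, Ezh2 and Eed were the most alike (r = 0.92, rho = 0.88) and Jarid2 and Aebp2 the least (r = 0.11, rho = 0.22).

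In other Polycomb gene lists, IP and input were compared in the same fit. Of 5 further PRC2 partners, Rbbp4 (0.31, limma adjusted p = 0.013), Rbbp7 (0.31, adjusted p = 0.015) and E130012A19Rik (0.40, adjusted p = 0.035) were higher in the IP. RBBP4 and RBBP7 are the histone-binding subunits of the core, and E130012A19Rik is an older name of Epop, a PRC2.1 partner. Rbbp7 was the highest of this list at a mean of 10.4 RPKM, and Phf1, another Polycomb-like gene, the lowest at 0.835.

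In canonical PRC1, the complex that reads H3K27me3 and ubiquitinates histone H2A, 10 of 13 genes were tested and 6 were higher in the IP. These were Pcgf2 (0.65), Ring1 (0.49), Phc1 (0.46), Scmh1 (0.36), Cbx7 (0.30) and Rnf2 (0.23), the last being the main ubiquitin ligase. Phc1 had the highest mean of the list at 86.7 RPKM, and Cbx8 the lowest at 0.010. Cbx7, the chromodomain subunit typical of ESCs, averaged 21.6 RPKM, against 2.08 for Cbx2. In variant PRC1, which acts without reading H3K27me3, 8 of 9 genes were tested and Pcgf6 (0.70), L3mbtl2 (0.36), Kdm2b (0.34), Yaf2 (0.31) and Bcor (0.26) were higher. Pcgf6 was the highest of these at 14.9 RPKM and Pcgf1 the lowest at 0.661.

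Of the H3K27 demethylases and the genes of the deubiquitinase PR-DUB, 5 of 5 were tested. The demethylases Kdm6a (0.30) and Kdm6b (0.42) were higher in the IP, and Bap1, Asxl1 and Asxl2 were not past the threshold at 0.20, 0.12 and 0.00. Asxl2 had the highest mean of this list at 7.50 RPKM and Bap1 the lowest at 3.44. Together 16 of the 28 tested genes of these 4 lists (57.1%) were called higher and 0 lower, next to the 56.4% of all genes given above. Without the library labelled F266A IP 1, 14 of the 28 were called, all higher in the IP, beside 58.4% of all genes tested. E130012A19Rik, Cbx7 and Yaf2 were then no longer called, and Bap1 was newly called. In the contrasts between lines limma called 0 of the 28, for enrichment and for the IPs alone. With that library left out it called 1 of the 28, Bcor, a PRC1 corepressor, in the IPs of F266A minus empty vector at -0.65 (SE 0.12, limma adjusted p = 0.034), beside 4.90% of all genes tested. With it included Bcor was at -0.48 (adjusted p = 0.089), from 2.11 and 1.47 RPKM in F266A IP 1 and IP 2 and 2.92 and 2.81 in the empty vector IPs.

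**Figure D4:**
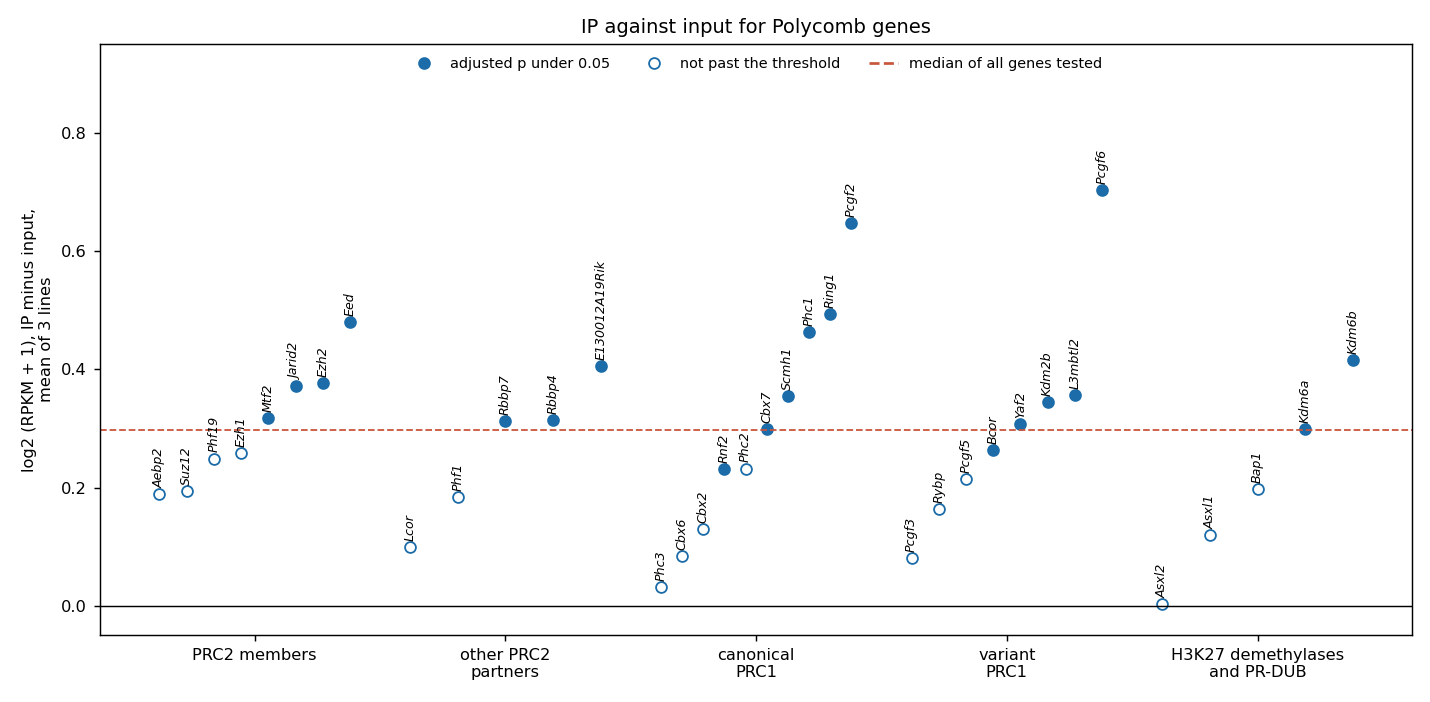
Difference of IP minus input in log2 (RPKM + 1), averaged over the 3 lines, for the 8 members and the tested genes of 4 other Polycomb lists, each list in ascending order. Filled circles have an adjusted p under 0.05, and the dashed line is the median of all genes tested at 0.30, with genes of every list on both sides of it.

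Of 18 genes known as Polycomb targets in ESCs, such as Hox, Pax6 and Gata4, only Gata4 and Olig2 passed the filter on low values, and the lowest mean was that of Pax3 at 0.0021 RPKM. Olig2, a neural transcription factor with the highest mean of the list, read 2.12, 3.004 and 1.94 RPKM in the empty vector, WT and F266A inputs and between 3.22 and 5.48 in the IPs, a rise of 0.65 (limma adjusted p = 0.0027). Gata4, also a primitive endoderm marker, read 1.90 in the F266A input, 0.695 in F266A IP 1 and 2.69 in F266A IP 2, and 0.171 or less in the other 6 libraries. It passed the filter only through its high F266A libraries, so no test between lines is given for it.

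Of the ESC markers, 6 of 10 were called higher in the IP than in the input, beside the 56.4% of all genes. Pou5f1 read 55.5, 50.2 and 39.8 RPKM in the empty vector, WT and F266A inputs. Its enrichment difference of F266A minus empty vector was -0.36 and was not called. In the IPs alone Pou5f1 was at -0.83 in F266A minus empty vector (limma adjusted p = 0.043), with 36.3 RPKM in F266A IP 1, 52.0 in F266A IP 2 and 81.1 and 74.9 in the empty vector IPs. Without the library labelled F266A IP 1 it was at -0.57 and no longer called (limma adjusted p = 0.081).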

How the data were processed

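RIPiT-seq of 9 libraries was analysed, with 1 input and 2 IPs for each of 3 ESC lines. The authors aligned the reads with TopHat 1.1.3 (mouse build mm9), and the deposited RPKM per symbol came from a script of their own. RPKM are scaled to all mapped reads, so a change in the share of reads on genes moves most genes together. Read numbers were estimated from RPKM, depth and GENCODE M1 transcript lengths, the authors' own lengths not being given in the sources used here, and their intervals cover counting error only. Tests used limma 3.58.1 in R 4.3.3 (eBayes with trend) for the 9787 genes that reached an RPKM of 1 in 2 libraries or more, on the log2 (RPKM + 1) scale, with 1 mean per line and fraction and Benjamini-Hochberg adjustment over all genes at 0.05. The spread comes from the 3 pairs of IPs, and from the remaining pairs where an IP or a line was left out. The inputs had no replicate and were assumed to vary like the IPs. In the additive fit the inputs also entered the spread. The fit was tested on simulated data. Sequences were compared with minimap2 2.31 and Biopython 1.88, and other steps used Python 3.11.15 with scipy 1.17.1. The members and lists were chosen with earlier results of these data known. Named genes were the 8 members, Polycomb list genes past the threshold, and the highest and lowest of each Polycomb list by mean RPKM. The 3 genes most correlated with Ezh2, Eed and Suz12 were also named. Other genes and members of lists were added after their values were seen. Alternatives covered the pseudocount, the filter, the scaling, the trend, the replicate block, an additive fit and each library or line left out.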

Additional observations from a re-analysis of the deposited data

How the results depend on the processing

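With 1 input per line and 2 IPs, the enrichment contrasts had a median SE of 0.24 over the members. IP against input called 4 of 8 members. It called 2 without a filter on RPKM, 0 with libraries centred on their median, 0 with quantile normalization and 2 without the empty vector line, and between 2 and 6 over all replicates and lines left out. Beside these, 3034 of 20431 genes tested were called higher without a filter, 92 of 9787 after centring and 101 of 9787 with quantile normalization. Without the empty vector line 2931 of 9787 were called higher. Without the WT line, which gave the 6 members, 4359 of 9787 were. With quantile normalization Ezh2 moved to -0.064, Jarid2 to -0.081 and Mtf2 to -0.12, and the uncalled Suz12 to -0.24, Aebp2 to -0.14 and Ezh1 to -0.04, and the cause was not tested. Over all alternatives and members of the limma contrasts, 690 values kept their sign and their side of the threshold, 7 were newly called, 12 were no longer called, 3 changed sign from a call and 64 uncalled values changed sign. The contrasts between lines called 0 members under every alternative. The rule of the methods was met by 0 members, and by 0 to 3 with a WT replicate left out. It was met by 0 without F266A IP 1 or with no pseudocount, alternatives chosen after seeing the data. Without F266A IP 2, also looked at after seeing the data, Phf19 was at 0.33 against a highest remaining control score of 0.24. The F266A control was then only the library labelled F266A IP 1, and the share of all genes was not computed, so nothing is drawn from these scores. The order of levels, taken from the same libraries that were tested, had 6 of 7 steps past the threshold and 0 in the 6 IPs alone, where 0.031 is the smallest exact p. The ratio of Ezh2 to Ezh1 was 3.66 with 1 added to both RPKM, against 4.66. Over all genes, IP against input called 5567 genes, and 153 after centring, 239 with quantile normalization and 2940 without the empty vector line. Without a filter it called 3258, and every count without a filter is out of 20431 genes tested. WT against F266A in the IPs called 114, and 0 without a filter, 976 in the additive fit and 0 to 196 with an IP left out. F266A against the empty vector called 445, and 2 without a filter, 242 with quantile normalization, 1635 in the additive fit and 0 to 275 in the fits with an IP left out that moved the count by over 1.5 times. WT against the empty vector called 0, and up to 17 in the additive fit. The enrichment contrasts called 0, and 33, 45 and 22 without a filter for WT against F266A, WT against the empty vector and F266A against the empty vector, 88 for the last with a pseudocount of 0.1, and 2 for WT against F266A without F266A IP 2. The replicate block had the shared replicate number as a term. In IP against input it called 5 of 8 members, adding Ezh1 (limma adjusted p = 0.046), beside 5798 of 9787 genes tested called higher. It called 7 genes in WT against the empty vector in the IPs, and 0 members between lines. Replicate differences correlated at 0.26, 0.11 and 0.01 between lines, so the numbers were not taken to pair the samples.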
